A study of Parachlorella kessleri with 6 samples.

Results

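Genes of nitrogen uptake and assimilation were examined in the single-celled green alga Parachlorella kessleri, a relative of Chlorella, in 3 control libraries and 3 libraries from cells under salt stress, all taken at 2 days. The sources used here give neither the strain nor the salt concentration, and they name no genotype, so the groups differ by the salt treatment alone as far as the labels say. Members were the rows of the assembled gene table with an ammonium transporter or amino acid transporter domain (43 rows), or with a best-match protein name that matched a fixed set of nitrogen terms (35 rows), with 6 rows chosen by both. These were 72 of 22972 rows, and none was chosen by its level or change. Names are those of the best match in other organisms, and identifiers are given without their TRINITY prefix. The best match in the broader protein database was a green alga for 60 of the 72 rows.

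Algae take up ammonium through ammonium transporters of the AMT family, and nitrate through NRT2-type transporters that work with a small NRT3-type partner. Nitrate reductase, an enzyme that needs the molybdenum cofactor, turns nitrate into nitrite, and nitrite reductase turns nitrite into ammonium. Glutamine synthetase fixes ammonium onto glutamate, and glutamate synthase uses the glutamine to make more glutamate, with electrons from ferredoxin in the plastid or from NADH. Glutamate dehydrogenase joins ammonium to 2-oxoglutarate or releases it, and the PII protein is a plastid sensor of carbon and nitrogen status.

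Levels are given as TMM-scaled CPM (counts divided by the scaled library size) when 1 row is compared between libraries, and as the authors' FPKM, which is scaled by transcript length, when rows are compared with each other. Folds are log2 values of salt over control with their standard error (SE) from edgeR's quasi-likelihood test on counts, adjusted by the Benjamini-Hochberg method over 11438 tested rows, and "raised" or "lowered" is used for an adjusted p under 0.05. CPM is a share of each library, so fewer transcripts per cell and fewer cells that carry them cannot be told apart. Library totals ran from 16460455 to 24065705 counts. The labels do not state that replicates were grown separately, so p-values reflect only how far these samples spread, and that spread may be technical. The replicate 1 libraries of both groups stood apart from the others: a row with phage domains held 12699 and 21047 counts in them and 0 in the other 4, and results that rest on them are given with and without them.

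In salt, most ammonium transporter rows, the row with nitrate and nitrite reductase, the PII protein and 3 of the 4 molybdenum cofactor members were raised. The most abundant control ammonium transporter, the NRT2-type nitrate transporter, cytosolic-type glutamine synthetase and NADH glutamate synthase were lowered. Of the 72 rows, 65 passed the filter on low counts. Among these 65, 29 were raised, which is 44.6% against 29.1% of all tested rows, and 13 were lowered, which is 20.0% against 28.7%. The 42 called rows together made 64.6%, against 57.8% of all tested rows. Of the 65 tested rows, 14 were raised and 7 were lowered by 2-fold or more, against 15.9% and 17.7% of all tested rows. The median log2 fold change of the 65 rows was 0.35, against 0.01 over all tested rows, and it ranged from -6.84 to 3.58. All 3 salt libraries lay above all control libraries for 32 rows and below them for 17, against 34.1% and 32.6% of all tested rows (66.7% in either direction), while 16 rows overlapped. The call held in each of the 6 fits that left out 1 library for 21 of the raised and 10 of the lowered rows.

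**Figure D1:**
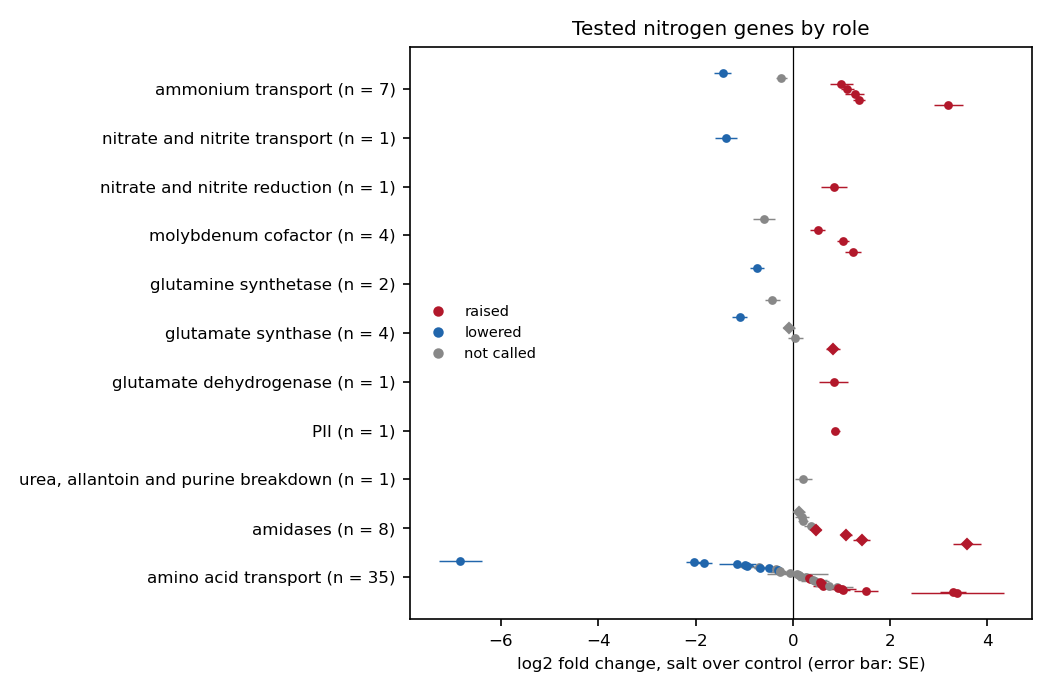
Log2 fold change (salt over control, x axis, bars are the SE) of each of the 65 tested rows, grouped by role, with raised rows in red, lowered rows in blue and rows not called in grey. Diamonds mark 7 rows whose name matched a nitrogen term while the known function of the match is another. Ammonium transport holds 5 raised rows and 1 lowered row, and amino acid transport spans -6.84 to 3.38.

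In ammonium transport, most rows were raised and the row that led in control was lowered. All 7 rows with the ammonium transporter domain were tested: 5 were raised, 1 was lowered and 1 was not called. Their median log2 fold change was 1.12, and no row overlapped between the groups. Of all tested rows, 29.1% were raised, 28.7% were lowered and 66.7% did not overlap.

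The row that rose the most was DN5043_c0_g3, a match to the plant high-affinity transporter AMT1 member 2. It held 44.3, 22.55 and 27.1 CPM in control replicates 1 to 3 and 356, 259.9 and 244 CPM in salt replicates 1 to 3. Every salt library was several times above the highest control library, and replicate 1 was the highest of each group. The log2 fold change was 3.19 (SE 0.30, adjusted p = 0.000184), and it lay between 2.999 and 3.54 when 1 library was left out.

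DN4708_c4_g1, a match to a cyanobacterial ammonium transporter, moved the other way. It held 225.6, 327 and 338 CPM in the control libraries and 117, 103 and 108 CPM in the salt libraries. The groups were well apart, with control replicate 1 the nearest to salt. On the log2 scale the change was -1.44 (SE 0.18, adjusted p = 0.000529).

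The other raised rows changed less and started from lower levels. DN4399_c0_g5, which has the transporter domain and no description, went from 46.6 ± 6.01 to 120.0 ± 7.67 CPM (mean ± SD, n = 3 each), a log2 fold change of 1.36. DN5575_c2_g1, an AMT1 member 3 match, went from 18.8 ± 4.02 to 45.3 ± 4.43 CPM, a log2 fold change of 1.27. DN5043_c0_g4 and DN5043_c0_g1, 2 further AMT1 member 2 matches, had log2 fold changes of 1.12 and 0.99, with adjusted p = 0.000372 and 0.0107. Both these rows and DN5067_c3_g1 also hold a predicted protein with another domain, so part of their counts may belong to it. DN5067_c3_g1, the remaining AMT1 member 2 match, was not called: its salt libraries (78.0 to 90.5 CPM) lay just below its control libraries (96.2 to 105.8 CPM), and the adjusted p was 0.0953.

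Per length, the order of the family changed. In control, DN4708_c4_g1 led at 134 FPKM, without overlap with the next row, DN5067_c3_g1 (31.0 FPKM). DN5067_c3_g1 overlapped in turn with DN5043_c0_g3 (21.8 FPKM), and the other 4 rows lay between 6.302 and 11.9 FPKM. In salt, DN5043_c0_g3 led at 209.5 FPKM, DN4708_c4_g1 came next at 49.6 FPKM without overlap, and DN5043_c0_g4, DN4399_c0_g5 and DN5067_c3_g1 followed as neighbours that overlapped (26.5 to 29.6 FPKM). As a share of the FPKM summed over the 7 rows, DN4708_c4_g1 went from 58.7% ± 6.92 to 13.2% ± 0.947 and DN5043_c0_g3 from 10.4% ± 5.06 to 55.1% ± 5.94 (SD, n = 3 each). DN4708_c4_g1 led in each control library and DN5043_c0_g3 in each salt library.

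The summed level of the family was higher in salt. It was 488, 584 and 605 CPM in the control libraries and 845, 751 and 756 CPM in the salt libraries, a ratio of means of 1.40. The groups did not overlap, and the exact permutation test over the libraries (two-sided) gave p = 0.1, the smallest value that 3 against 3 allows. The 3 DN5043_c0 rows come from 1 assembly cluster, where reads of similar sequences may have been divided between rows. Their sum went from 95.8 ± 2.48 to 424 ± 49.6 CPM, a ratio of 4.42. The whole cluster holds 10 rows, of which these 3 carried 4.26%, 12.7% and 27.7% of the counts. Summed over all 10 rows the log2 change was 0.32 and was not called (adjusted p = 0.0778), so the calls of all 3 rows are lost at the level of the cluster.

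**Figure D2:**
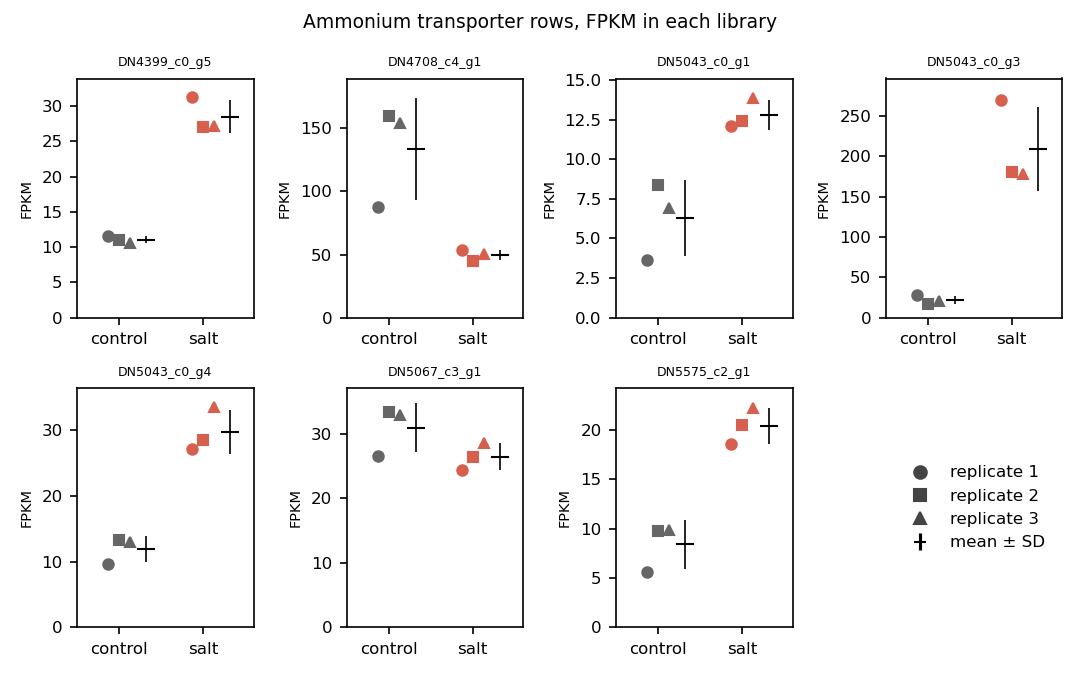
FPKM of each of the 7 ammonium transporter rows in each library (y axis, separate scale per panel, starting at 0), with the mean ± SD of 3 libraries beside the points. DN5043_c0_g3 rises from a mean of 21.8 to 209.5 FPKM, and DN4708_c4_g1 falls from 134 to 49.6 FPKM.

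For nitrate uptake, 1 of the 2 rows could be tested, and it was lowered. DN4561_c1_g5, a match to the high-affinity nitrate transporter NRT2.4, held 16.1, 24.3 and 27.0 CPM in the control libraries and 8.40, 7.70 and 9.76 CPM in the salt libraries. All salt libraries lay below all control libraries, with a log2 change of -1.38 (SE 0.23, adjusted p = 0.00214). The row carried 4.11% of the counts of its 10-row assembly cluster, whose sum was not called (log2 change -0.01, adjusted p = 0.887). The second row, DN2791_c0_g1, a match to the partner protein NRT3.2, held 15 counts in control replicate 1, 8 in salt replicate 1 and 0 in the other 4 libraries, where a count of 0 allows up to 0.189 CPM at the shallowest depth. Its best match was a land plant.

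The step from nitrate to ammonium rested on 1 tested row, which was raised. DN3681_c0_g1 holds a predicted nitrate reductase and, as a second predicted protein, a nitrite reductase, so its counts cannot be assigned to either enzyme. It held 28.4, 54.3 and 52.8 CPM in the control libraries and 76.3, 96.9 and 69.0 CPM in the salt libraries. Each salt library was above each control library, with control replicate 1 well below the other control libraries. The log2 fold change was 0.84 (SE 0.27, adjusted p = 0.0309), and the call was lost without salt replicate 1 (adjusted p = 0.0646) or salt replicate 2 (adjusted p = 0.0953). A second nitrate reductase row held 3 counts, all in control replicate 2, and was not tested.

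Of the 4 members of the molybdenum cofactor role, 3 were raised, against 29.1% of all tested rows. This cofactor is the metal group of nitrate reductase and of a few other enzymes. Summed over the 4 rows, the level was 216.6 ± 34.66 CPM in control and 243.4 ± 18.25 CPM in salt. These sums overlapped between the groups (exact permutation test, two-sided, p = 0.3). DN2861_c0_g1, a match to molybdopterin adenylyltransferase, which activates molybdopterin before the metal is added, went from 17.0 ± 1.31 to 40.1 ± 6.53 CPM. Its log2 fold change was 1.24 (SE 0.16, adjusted p = 0.00065). DN4121_c0_g1, a match to CNX1, the plant protein of the metal insertion step, went from 25.9 ± 1.51 to 52.9 ± 6.50 CPM, a log2 fold change of 1.03. These 2 rows kept their call whichever library was left out.

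The other 2 cofactor rows were less firm. DN4586_c3_g1, the catalytic subunit of molybdopterin synthase, had a log2 fold change of 0.51 (adjusted p = 0.0232) on a row that also holds a copper transporter domain protein. It lost its call without control replicate 3 (0.0690), salt replicate 2 (0.0643) or salt replicate 3 (0.0717). DN5951_c0_g1, a match to the cyclic pyranopterin monophosphate synthase of the first cofactor step, lay lower in salt (84.7 ± 11.6 CPM) than in control (128 ± 38.2 CPM) without overlap and was not called (log2 fold change -0.59, adjusted p = 0.0529). Control replicate 1 held 171.8 CPM, against 106 and 105 CPM in control replicates 2 and 3. With the replicate number as a block the row was called (log2 fold change -0.56, adjusted p = 0.0139). It was also called without control replicate 2 (0.0469) or control replicate 3 (0.0473). When 1 library was left out, the log2 fold change lay between -0.72 and -0.31, with adjusted p up to 0.163. The separate list described below held further cofactor rows. DN5128_c2_g4, a match to molybdenum cofactor biosynthesis protein 1, was raised (0.62, adjusted p = 0.0209). Its summed cluster was not called (-0.15, adjusted p = 0.177). Of the molybdenum cofactor sulfurase matches, DN3705_c0_g1 was lowered (-1.38, adjusted p = 0.0034). DN4619_c1_g4 (-0.82, adjusted p = 0.115) and DN5029_c0_g1 (0.20, adjusted p = 0.591) were not called.

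Glutamine synthetase, the entry point of ammonium into amino acids, lay lower in salt in both tested rows, and 1 of them passed the test. DN5040_c1_g4, which matches the cytosolic isozyme of Chlamydomonas, held 449.7, 515 and 542 CPM in the control libraries and 326, 269 and 308 CPM in the salt libraries. The lowest control library was above the highest salt library, and the change was -0.74 on the log2 scale (SE 0.14, adjusted p = 0.00328). It carried 43.3% of the counts of its 12-row assembly cluster, whose sum was not called (log2 change -0.02, adjusted p = 0.829). DN5143_c1_g2, which matches a cyanobacterial glutamine synthetase, went from 205 ± 37.8 to 153 ± 13.1 CPM without overlap and was not called (log2 fold change -0.42, adjusted p = 0.0518). DESeq2's Wald test called it (adjusted p = 0.0268). No fit without 1 library did: the log2 fold change lay between -0.50 and -0.25, with adjusted p from 0.0588 to 0.156. Control replicate 1 held 248.9 CPM, against 183 and 183.9 CPM in control replicates 2 and 3. The remaining row held 3 counts, all in control replicate 2.

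The 2 forms of glutamate synthase differed. DN5946_c0_g2, the NADH form, held 855.5, 1034 and 1097 CPM in the control libraries and 488, 503 and 405 CPM in the salt libraries, among the highest counts of any member. The groups were far apart, at a log2 change of -1.10 (SE 0.16, adjusted p = 0.00118).

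DN5946_c0_g1, the ferredoxin form of the plastid, held 192, 269.6 and 265.5 CPM in the control libraries and 253, 237.5 and 261 CPM in the salt libraries. The groups overlapped, with control replicate 1 the lowest library. Its log2 fold change was 0.05 (SE 0.16, adjusted p = 0.815), and it was -0.09 without control replicate 1.

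Per length, the ratio of the ferredoxin form to the NADH form reversed between the groups. The log2 ratio of their FPKM was -0.88, -0.65 and -0.74 in the control libraries and 0.37, 0.29 and 0.71 in the salt libraries. The exact permutation test (two-sided) gave p = 0.1, the smallest possible value. By counts the NADH row stayed ahead in every library, by less in salt. The log2 ratio of counts was -2.15, -1.94 and -2.05 in control and -0.95, -1.08 and -0.63 in salt. The NADH row also holds another predicted protein, so part of its counts may belong to that protein. Both rows lie in 1 assembly cluster, and the effective length of the ferredoxin row (2144 bases) was shorter than that of the NADH row (5266 bases), so reads of similar stretches may have been divided between them. Another glutamate synthase row of the cluster held 0 to 6 counts per library.

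A further 2 rows entered this role by name alone. DN4759_c0_g2, an N-acetylglutamate synthase match that starts arginine synthesis, was raised (log2 fold change 0.82, adjusted p = 0.00219). DN5076_c1_g1, a folylpolyglutamate synthase match of folate metabolism, was not called (log2 fold change -0.07, adjusted p = 0.638).

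Glutamate dehydrogenase was raised, by a call that held in 1 of the 6 fits without 1 library. DN5009_c1_g1, a match to the NADP-dependent enzyme, held 303, 141 and 155 CPM in the control libraries and 394, 340 and 338 CPM in the salt libraries. Every salt library was above every control library, and control replicate 1 lay between the others. The log2 change was 0.84 (SE 0.29, adjusted p = 0.0447). The call was lost when any library other than control replicate 1 was left out, with adjusted p from 0.0872 to 0.138. Without control replicate 1 the log2 fold change was 1.28 (adjusted p = 0.000195). The row also holds an RNA-binding protein of the PUF family.

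Glutamate dehydrogenase stayed below glutamine synthetase per length in every library, by less in salt than in control. The log2 ratio of the FPKM of DN5009_c1_g1 to that of DN5040_c1_g4 was -1.57, -2.84 and -2.80 in the control libraries and -0.25, -0.30 and -0.49 in the salt libraries, without overlap (exact permutation test, two-sided, p = 0.1, the smallest possible). By counts the log2 ratio was -0.57, -1.87 and -1.80 in control and 0.27, 0.34 and 0.13 in salt. Glutamate dehydrogenase thus lay above glutamine synthetase by counts in each salt library. The effective length of DN5009_c1_g1 was 4265 bases in control and 3697 bases in salt.

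The PII signalling protein, DN3754_c0_g1, showed the least spread of the single-gene roles. It held 134, 137.5 and 133.5 CPM in the control libraries and 255, 248 and 239.9 CPM in the salt libraries. The groups were far apart beside a control SD of 2.13 CPM. On the log2 scale the rise was 0.87 (SE 0.10, adjusted p = 0.000357), and it lay between 0.86 and 0.91 when 1 library was left out.

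**Figure D3:**
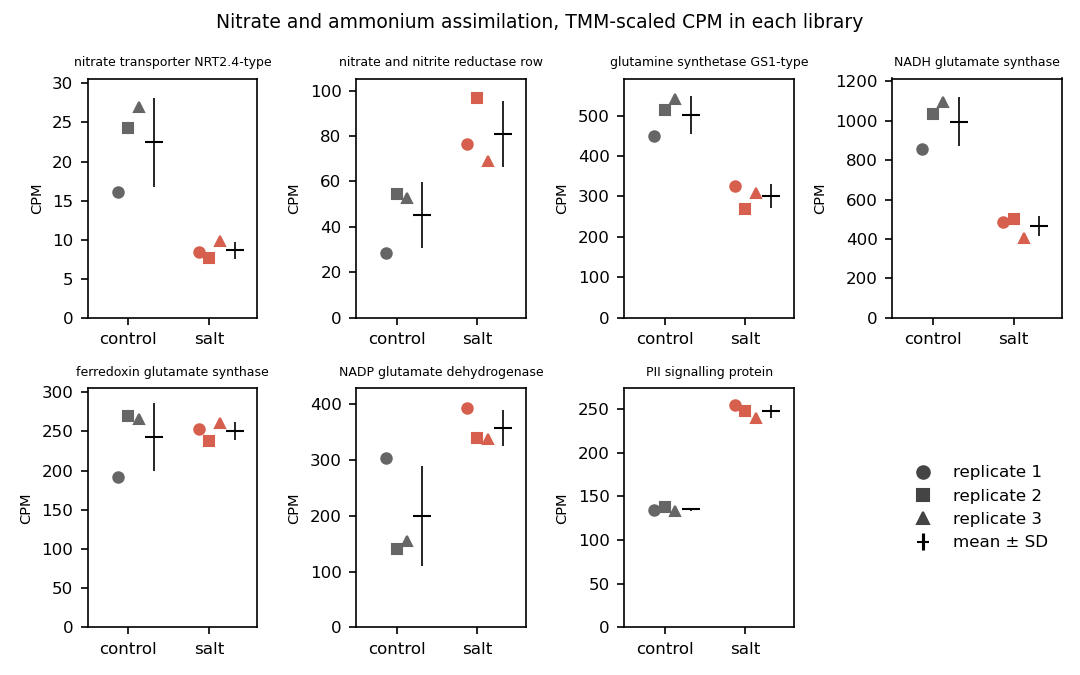
TMM-scaled CPM in each library (y axis, separate scale per panel, starting at 0) of 7 rows of nitrate transport, nitrate and nitrite reduction, glutamine and glutamate synthesis and PII, with the mean ± SD of 3 libraries beside the points. NADH glutamate synthase falls from a mean of 995 to 465 CPM, the ferredoxin form overlaps between groups, and control replicate 1 lies apart for glutamate dehydrogenase.

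Few rows for other nitrogen sources were measurable. DN3033_c0_g2, a match to uricase, the enzyme that opens the purine ring of uric acid, held 24.5 to 30.2 CPM in control and 25.7 to 38.3 CPM in salt, and was not called (log2 fold change 0.21, adjusted p = 0.336). The 2 urea amidolyase rows, matches to an enzyme that splits urea with ATP, held at most 6 counts in any library and were not tested. No row of the table had a name with urease.

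The word amidase brought in 8 tested rows, of which 4 were raised (50.0%, against 29.1% of all tested rows). The matches of these 4 are known for roles outside nitrogen assimilation. DN4757_c2_g1, a nicotinamidase match of NAD salvage, held 1.30, 0.75 and 0.88 CPM in the control libraries and 12.35, 12.6 and 10.3 CPM in the salt libraries. It was low in every control library and about an order of magnitude above in every salt library, a log2 change of 3.58 (SE 0.28, adjusted p = 0.000101). Its best match in the broader protein database was Echinicola pacifica, a bacterium, and whether the row is algal was not tested. DN5334_c1_g11 and DN5949_c3_g2, matches to components of the enzyme that attaches GPI anchors to proteins, had log2 fold changes of 1.41 and 1.10, and DN4569_c0_g1, a ceramidase match, had 0.48.

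The 3 amidases that act on small nitrogen compounds were not called, and neither was a glycoprotein amidase. DN5027_c4_g1, an aliphatic amidase match, had a log2 fold change of 0.37 (adjusted p = 0.0572) and was called without control replicate 1 (0.49, adjusted p = 0.011) or salt replicate 1 (0.46, adjusted p = 0.0365). DN5418_c1_g2, an N-carbamoylputrescine amidase match of polyamine synthesis, had 0.20, and DN3714_c0_g1, an amidase 1 match, had 0.18. DN4661_c0_g1, a peptide N-glycanase match, had 0.12.

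Amino acid transport was the largest role and had no common direction. Of 36 rows with an amino acid transporter domain, 35 were tested: 13 were raised, 9 were lowered and 13 were not called. These were 37.1% raised and 25.7% lowered, against 29.1% and 28.7% of all tested rows. The median log2 change was 0.28. The CPM summed over the tested rows was 4278 ± 104 in control and 4124 ± 189.8 in salt, which overlapped (exact permutation test, two-sided, p = 0.3). In 12 of the 35 rows another predicted protein with an unrelated domain shares the row. Among the 23 rows with a transporter alone, 9 were raised and 7 lowered, and their summed level was 2369 ± 157 CPM in control and 1962 ± 125 CPM in salt, without overlap (exact permutation test, two-sided, p = 0.1, the smallest possible). The largest falls in mean CPM among these 23 rows were those of DN5470_c0_g1 (620 to 321.5 CPM) and DN5384_c1_g3 (476 to 216 CPM). DN5384_c1_g3 held 796 CPM in control replicate 1. In mean CPM, the falls of these rows together were larger than the fall of the sum. The lower sum was thus not shared by the other rows, which together lay higher in salt. The sum without DN5470_c0_g1 and DN5384_c1_g3 was not tested. Among the 12 shared rows 4 were raised and 2 lowered.

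The largest rises came from low control levels. DN3628_c0_g2, a match to the plant amino acid permease AAP2, held 15.6, 1.75 and 1.07 CPM in the control libraries and 96.8, 40.2 and 58.0 CPM in the salt libraries. Replicate 1 was the highest library of both groups. The log2 fold change was 3.38 (SE 0.95, adjusted p = 0.0195), it was 5.50 without control replicate 1, and the call was lost without salt replicate 1 (2.995, adjusted p = 0.0591). DN3972_c0_g1, a permease with no description, held 18.2, 11.6 and 13.1 CPM in the control libraries and 186, 119 and 115 CPM in the salt libraries. Its groups were far apart, at 3.29 on the log2 scale (SE 0.27, adjusted p = 0.00011). DN4946_c2_g2 had 1.51, and DN5473_c2_g2 had 1.03 on a row that also holds plastid ribosomal protein S20.

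The largest fall was nearly complete. DN5915_c3_g16, an amino acid transporter domain row whose best named match is a Volvox surface glycoprotein, held 74.99, 33.1 and 38.1 CPM in the control libraries and 0.409, 0.508 and 0.348 CPM in the salt libraries. The row was close to its detection limit in every salt library, since 3 counts are worth 0.131 to 0.138 CPM there. Its log2 change was -6.84 (SE 0.44, adjusted p = 5.24e-05). The other 17 rows of its assembly cluster outweighed it: the summed cluster had a log2 fold change of 0.02.

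DN3956_c0_g1, which has no description, held 175, 163 and 170.1 CPM in the control libraries and 32.9, 48.7 and 42.9 CPM in the salt libraries, again without overlap. Its log2 fold change was -2.03 (SE 0.16, adjusted p = 9.87e-05). DN4750_c1_g3, an amino acid permease AAP5 match, had -1.84 on a row that also holds a predicted acyltransferase of the family that makes triacylglycerol. DN5384_c1_g3 held 796, 296 and 335 CPM in the control libraries and 241, 214 and 192 CPM in the salt libraries. Control replicate 1 stood far above the rest, and the call (log2 fold change -1.14, adjusted p = 0.0358) was lost without salt replicate 1 (0.0746), salt replicate 2 (0.102) or salt replicate 3 (0.114). Without control replicate 1 the log2 fold change was -0.54.

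The 2 most abundant rows by CPM changed in opposite directions. DN5783_c0_g2, named for a copper oxidase and holding several other proteins, was raised (log2 fold change 0.93, adjusted p = 0.00249). DN5470_c0_g1, a match to the permease BAT1, which moves amino acids in both directions in Arabidopsis, went from 620 ± 96.6 to 321.5 ± 11.8 CPM. Its log2 fold change was -0.95 (SE 0.15, adjusted p = 0.00171). The remaining called rows had log2 fold changes from -0.98 to 1.01. With the replicate block, 3 of them lost their call (DN3502_c0_g1, DN4389_c0_g1 and DN4252_c0_g1, adjusted p from 0.0544 to 0.0707), and DN4805_c1_g3 (0.0152) and DN5147_c1_g8 (0.0429) gained one.

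**Figure D4:**
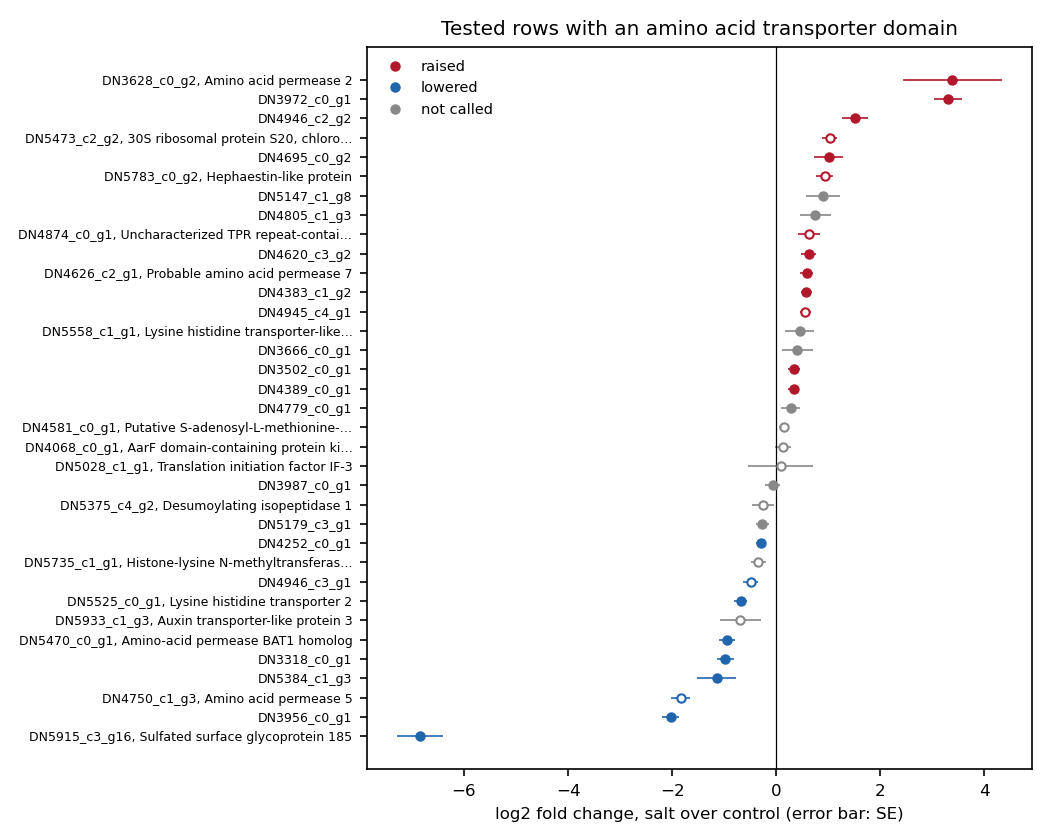
Log2 fold change (salt over control, x axis, bars are the SE) of the 35 tested rows with an amino acid transporter domain, in red where raised, blue where lowered and grey where not called. Hollow points mark the 12 rows that also hold another predicted protein, whose name may be the one shown, and values run from -6.84 to 3.38.

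Other genes of nitrogen metabolism were taken by name from a separate list: 39 rows, of which 33 were tested, 12 were raised, 8 were lowered and 13 were not called. These are 36.4% raised and 24.2% lowered, against 29.1% and 28.7% of all tested rows. Their median log2 change was 0.26. With library totals in place of TMM scaling, 15 were raised and 4 lowered, so the raised share of called rows went from 60.0% to 78.9%. That scaling moved the median of all tested rows from 0.01 to 0.20.

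Among the raised, DN4726_c0_g1, an asparagine synthetase match, which moves the amide of glutamine onto aspartate, held 163, 168 and 163 CPM in the control libraries and 515, 509 and 544 CPM in the salt libraries. Both groups were tight and far apart, at 1.67 on the log2 scale (SE 0.11, adjusted p = 5.06e-05). L-asparaginase (DN5343_c0_g1) had a log2 fold change of 1.12 and mitochondrial aspartate aminotransferase (DN5053_c1_g1) had 1.25, while the bifunctional aspartate aminotransferase match DN5541_c1_g2 was not called (0.37, adjusted p = 0.0506). Argininosuccinate lyase (DN4005_c0_g2), the last step of arginine synthesis, also had 1.25.

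The largest rise of the list was DN4798_c0_g4, a match to the NRT1/PTR family transporter 8.3, a peptide carrier in Arabidopsis. It went from 62.9 ± 2.11 to 235.9 ± 4.84 CPM, which is 1.91 on the log2 scale (SE 0.10, adjusted p = 2.53e-05). Another row of its assembly cluster, DN4798_c0_g1, a match to family member 8.4, was not called (-0.02, adjusted p = 0.904). NADP isocitrate dehydrogenase (DN5329_c0_g1), a source of 2-oxoglutarate, was raised as well, with a log2 fold change of 0.995 (adjusted p = 0.00149).

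Among the lowered were 2 matches to NLP proteins, which in Arabidopsis are transcription factors of the nitrate response. DN4626_c0_g1, an NLP1 match, held 46.8, 81.3 and 88.2 CPM in the control libraries and 20.25, 27.7 and 25.9 CPM in the salt libraries, without overlap. Its log2 fold change was -1.55 (SE 0.26, adjusted p = 0.00216). DN5948_c2_g1, an NLP6 match, had -0.47 (adjusted p = 0.00801), while a second NLP1 match, DN4855_c5_g1, was not called at 0.26 (adjusted p = 0.175).

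Glycine dehydrogenase (DN6007_c0_g1), part of the mitochondrial glycine breakdown that frees ammonium, was the most abundant gene of the list. It fell from 1608 ± 34.4 to 849.9 ± 129 CPM, a log2 fold change of -0.92 (adjusted p = 0.00243). The molybdate transporter (DN5214_c0_g6) had -0.43 and xanthine dehydrogenase (DN4706_c0_g2), which uses the molybdenum cofactor, had -0.53. These calls were lost in 2 and 4 of the 6 fits without 1 library. Another xanthine dehydrogenase match of the same assembly cluster, DN4706_c0_g6, overlapped between the groups and was not called (-0.43, adjusted p = 0.0934). Plastid dicarboxylate transporter 1 (DN5131_c0_g1), which carries 2-oxoglutarate, had -0.32 (adjusted p = 0.0403) and lost its call with the replicate block (0.0632) and in 5 of the 6 fits without 1 library.

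**Figure D5:**
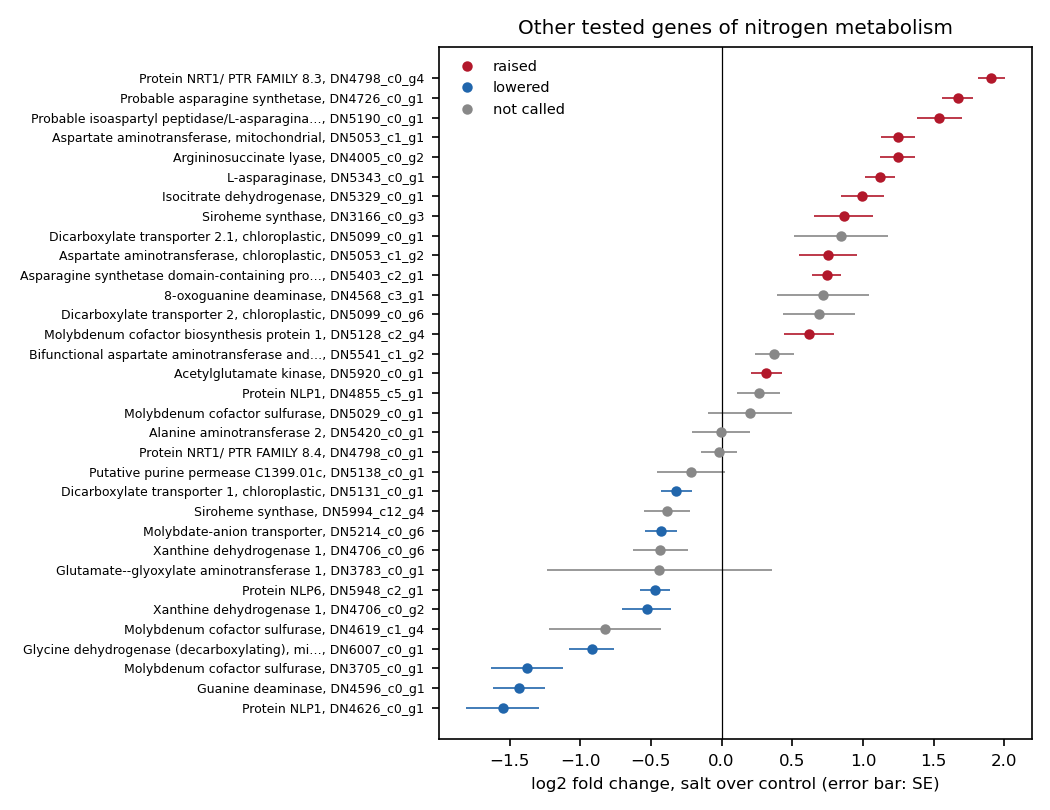
Log2 fold change (salt over control, x axis, bars are the SE) of the 33 tested rows of the separate list of nitrogen metabolism genes, with best-match names, in red where raised, blue where lowered and grey where not called. Values run from -1.55 for an NLP1 match to 1.91 for an NRT1/PTR family 8.3 match.

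Several measured properties bear on these values. The 65 tested rows were longer than most, with a median effective length of 2207 bases against 1438 over all tested rows, and 42 of them lay at or above the median CPM of all tested rows. In 20 of the 72 rows a second predicted protein with an unrelated domain shared the row. The members lay in 68 assembly clusters that held 291 other rows, none of them a gene of the separate nitrogen list, and for 6 of the 42 called members the summed cluster had the opposite sign. Among the rows raised by name alone, the cluster sums of DN4757_c2_g1 (-1.61), DN5334_c1_g11 (-0.0287), DN5949_c3_g2 (0.0172) and DN4759_c0_g2 (-0.0725) did not keep the rise, nor did that of the cofactor row DN4586_c3_g1 (-0.15). For 1 called member, DN4626_c2_g1, the FPKM went the other way than the counts (103 to 102 FPKM). Of the 7 rows that were not tested, 4 had a land plant as best match. The authors' deposited table marked 17 of the 29 raised and 7 of the 13 lowered rows as significant, in the same directions, and none of the 23 rows not called here. Every marked member changed at least 2-fold by the authors' own values, a minimum that the calls here do not use. DN3754_c0_g1 (0.91) and DN5470_c0_g1 (-0.92) were not marked, at an FDR of 0.000164 and 0.000433 from the authors' unnamed test.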

How the data were processed

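Per the labels' protocols, total RNA of the 3 control and 3 salt samples was isolated with TRIzol. Sequencing is labelled as Illumina in one place and as Proton in another, and this was not settled. For aligner and counter, names were not given in the sources used here. Per the file headers, the authors deposited raw read counts for each assembled row. They also deposited FPKM values of each library, and the authors' log2 fold changes with p-values and FDR from an unnamed test. Of the authors' test results, the significance marks are quoted, with the log2 fold change and FDR of DN3754_c0_g1 and DN5470_c0_g1.

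Counts were tested with edgeR 4.0.16 in R 4.3.3: TMM factors, filterByExpr (minimum count 10), a quasi-likelihood model of condition alone over all rows, and Benjamini-Hochberg adjustment at 0.05. The procedure was tested on simulated data with known changes. SE is the absolute log2 fold change over the root of the F statistic. Effective length was computed from counts and FPKM. A count was worth 0.0436 to 0.0629 CPM, and 3 counts, the limit used for a count of 0, were worth 0.131 to 0.189 CPM; both cover counting error only. Rows that hold several predicted proteins were found from the domain column.

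The members and lists were chosen with earlier results of these data known. In roles with up to 8 tested rows every row is named; in amino acid transport, the 4 largest rises and falls among called rows and the 2 most abundant are named, and other rows named there were picked for a changed call. From the separate list, the rows named are the 5 largest rises and falls among called rows at or above the median CPM. The 3 most abundant are named too. DN4855_c5_g1, DN5541_c1_g2, DN4706_c0_g6, DN4798_c0_g1 and the cofactor rows DN5128_c2_g4, DN3705_c0_g1, DN4619_c1_g4 and DN5029_c0_g1 were added after their values were seen. Same-numbered libraries deviated together from their group means (correlations of 0.37, 0.16 and 0.22 across genes), but pairing by number cannot be told apart from the replicate 1 libraries standing apart together. Control replicate 2 with salt replicate 3 correlated at 0.29, and control replicate 3 with salt replicate 2 at 0.10. The fit with the replicate block was an alternative. No 2 replicates agreed within sampling noise: chi-square per gene was at least 5.23. Other alternatives were DESeq2 1.42.0 size factors and Wald test, library totals, other filters, left-out libraries, summed clusters and a 2-fold minimum. Added after seeing the data were a term for the replicate 1 libraries and the member lists without shared rows or without rows of another function. Member sequences are not shown here.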

Additional observations from a re-analysis of the deposited data

How the results depend on the processing

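Under the settings tried on the whole table, the counts of called members stayed within 1.5 times 29 raised and 13 lowered, except at a 2-fold minimum (14 and 7). They were 23 to 30 raised and 10 to 15 lowered when 1 library was left out, 31 and 16 with replicates 2 and 3 alone, 31 and 18 with a term for the replicate 1 libraries, 31 and 15 with DESeq2's Wald test, 34 and 11 with library totals, 21 and 19 with summed clusters, 24 and 13 without rows of another function, and 20 and 10 on rows of a single function. With the replicate block they were again 29 and 13, and beside the changes given above the block lost DN5920_c0_g1 and gained DN5099_c0_g1, DN5099_c0_g6 and DN5541_c1_g2 in the separate nitrogen list.

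For the separate list, the 12 raised and 8 lowered rows became 6 and 3 at a 2-fold minimum. Its lowered rows were 4 with library totals, 5 with no filter and 13 with replicates 2 and 3 alone, and 5 (without salt replicate 3) to 13 (without control replicate 1) with 1 library left out. Its raised rows were 10 to 15 with 1 library left out.

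Summing a cluster turned the log2 fold change of DN4757_c2_g1 to -1.61, DN5334_c1_g11 to -0.0287, DN5418_c1_g2 to -0.84, DN5915_c3_g16 to 0.0224, DN5067_c3_g1 to 0.16, DN4759_c0_g2 to -0.0725, DN5946_c0_g1 to -0.71, DN4586_c3_g1 to -0.15, DN5343_c0_g1 to -1.14 and DN5948_c2_g1 to 0.83. It also ended the calls of DN5043_c0_g1, DN5043_c0_g3 and DN5043_c0_g4 (0.32), DN4561_c1_g5 (-0.01), DN5040_c1_g4 (-0.02), DN5949_c3_g2 (0.0172) and DN5384_c1_g3 (-0.66). Of the 291 other rows in these clusters 56 have a protein description, and whether the rows of a cluster are 1 gene was not tested. DN5076_c1_g1 was 0.11 with library totals, and DN5946_c0_g1 was -0.0940 with replicates 2 and 3 alone and from -0.0883 (without control replicate 1) to 0.126 with 1 library left out; the cause was not tested.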
